A study of Drosophila melanogaster with 72 samples.

Results

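The genes described here encode voltage-gated potassium channels of Drosophila melanogaster and the proteins known to work with the Shaker channel. The 10 members, Sh, Hk, qvr, Shab, Shal, Shaw, slo, sei, eag and KCNQ, were chosen by name among the 13898 genes listed in the deposited tables. All 10 were listed, had counts in every library and passed the filter on low counts in every comparison. The choice was made with earlier results of these data known.

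Potassium channels of this class open when the membrane depolarises and let potassium leave the cell, which ends the action potential and sets how often a neuron can fire. Sh encodes the Shaker channel of the fast, inactivating A-type current, Hk its cytoplasmic beta subunit Hyperkinetic, and qvr (quiver, also called sleepless) a membrane-anchored protein of the Ly6 family that regulates Shaker. Fly mutants of Sh, Hk and qvr are known for short sleep, so these 3 genes are central to sleep research in this species.

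Shab, Shal and Shaw encode the remaining founding subfamilies of voltage-gated channels. Shab carries a delayed rectifier current and Shal an A-type current of cell bodies and dendrites. The gene slo encodes the large-conductance channel opened by calcium together with voltage. The ether-a-go-go family is represented by eag and by sei (seizure), the fly relative of the ERG channels, and KCNQ is the fly relative of the channels of the M current.

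Whole brains were sequenced in 72 libraries of 24 groups with 3 libraries each, and every library was a pool of 15 brains. Flies of the iso31 strain were dissected undisturbed at 25 °C at ZT0, ZT4, ZT8, ZT12, ZT16 and ZT20, where ZT0 is lights on and ZT12 lights off. Other iso31 flies were shaken by a vortexer for 2 s in every 20 s, at random, over the last 3, 6 or 12 h before their dissection at ZT0. The labels give no temperature for the shaken flies.

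In 5 GAL4 lines, UAS-TrpA1 placed a channel that opens on warming in the neurons that the GAL4 driver marks. Each line had 3 groups. TrpA1 29C carried both transgenes and was shifted from 21 °C to 29 °C. GAL4 control 29C lacked UAS-TrpA1 and was shifted in the same way. TrpA1 21C carried both transgenes and stayed at 21 °C. Lines R21H11, R65H02, HC (hot cell) and R60F09 drive wake-promoting neurons and were shifted for 3 h before dissection at ZT0. Line R85C10 drives sleep-promoting neurons, per the protocol, although its sample titles speak of deprivation, and was shifted for 12 h before dissection at ZT12. A contrast of TrpA1 29C with GAL4 control 29C holds temperature constant, and one with TrpA1 21C holds the transgenes constant. Whole brains were sequenced, so a change confined to the driven neurons is diluted by all other cells.

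Total estimated counts ran from 4175587 to 13435817 a library, with a median of 8437310. CPM are counts scaled to a common library size with TMM. The values of TrpA1 and of the white gene w are the exception and carry no TMM factor. TrpA1, counted without separating the endogenous gene from the transgene, lay at 6.25 to 11.7 CPM in iso31 and 9.76 to 14.7 in the GAL4 controls. It lay at 20.1 to 144 CPM in TrpA1 29C and at 11.9 to 296 in TrpA1 21C. In the group labelled HC TrpA1 21C it overlapped the HC GAL4 controls, while w, the white gene whose mini-white copy commonly marks transgenes, was higher there than in those controls in every library. Directions drawn from that group rest on its label. Neuron markers (elav, nSyb, brp, Syt1, Snap25, Syx1A and futsch) summed to 5775 to 11761 CPM a library and glia markers to 2610 to 4612. Markers of tissues beside the brain varied more, photoreceptor markers from 20.9 to 6675 CPM, fat body markers from 12.3 to 2679 and muscle markers from 7.22 to 415. In no group was any of these marker genes at 0 in all libraries. The labels do not say whether libraries of a group came from separate cultures, so p-values measure the spread between these pools.

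By TPM, which corrects for length so that genes can be compared, qvr had the highest mean of the members and KCNQ the lowest. The mean over the 24 group means was 554 ± 147 TPM (SD over groups, n = 24) for qvr and 436 ± 98.5 for Sh. The calcium-activated channel slo (299.9 ± 70.0 TPM), the beta subunit Hk (296 ± 60.5) and Shab (291 ± 79.1) followed with similar means. The SD describes variation over groups, and differences between genes were not tested. Shaw (163 ± 35.4 TPM) and Shal (152 ± 27.9) came next. The ether-a-go-go family members were lower, sei at 99.8 ± 15.6 TPM and eag at 64.4 ± 18.3, and KCNQ lay at 52.8 ± 12.5.

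Every member was detected in each library, with estimated counts from 253 (KCNQ, lowest library) to 28525 (Sh, highest library). The highest group mean of a member was 1.82 times (sei) to 2.98 times (eag) its lowest in TPM. The lowest TPM group means fell in R21H11 TrpA1 29C for Hk, qvr, Shab, Shaw, slo and sei, and in R60F09 TrpA1 21C for Sh, Shal, eag and KCNQ. For Sh the group means ran from 252 TPM in R60F09 TrpA1 21C to 562 in R85C10 TrpA1 21C. For qvr they ran from 314 TPM in R21H11 TrpA1 29C to 777 in R65H02 GAL4 control 29C. The plot of TPM by library shows that the 10 genes share much of this order of groups.

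**Figure D1:**
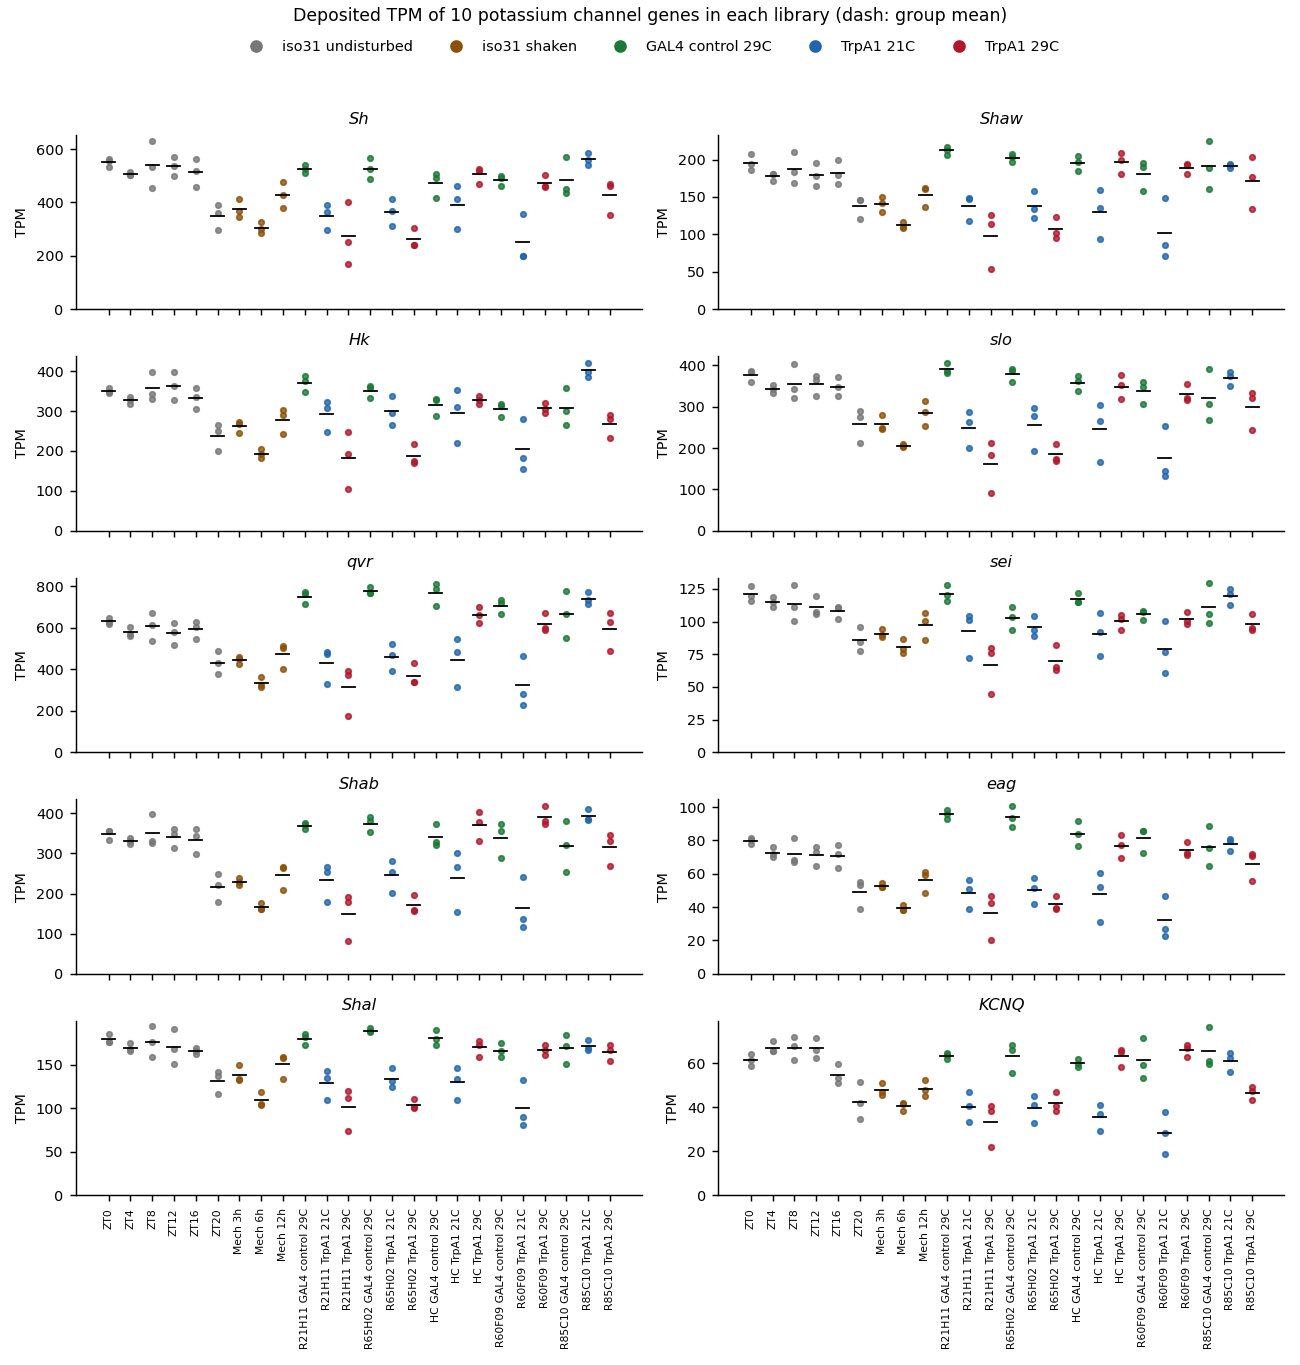
Deposited TPM of each of the 10 members (y axis, linear, from 0) in the 72 libraries, by group (x axis), coloured by kind of group, with a dash at the mean of the 3 libraries. Low means are shared by the genes in Mech 6h, R21H11 TrpA1 29C, R65H02 TrpA1 29C and R60F09 TrpA1 21C, and the libraries of R21H11 TrpA1 29C and R60F09 TrpA1 21C are spread widely.

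The members are long genes. The ratio of estimated count to TPM of a gene is proportional to the effective length that the quantification used, and it was divided here by the median ratio of the same library to give a relative length. By this measure eag was 4.84 times as long as the median gene, Sh 4.28, slo 4.12, Shab 3.64, Hk 3.12 and qvr 2.62 times. Shaw (2.01), Shal (1.98), KCNQ (1.47) and sei (1.37) were shorter. Of 5 equal classes of genes by length, the longest class starts at 1.87 times the median gene and held 8 members, and the class below it held the other 2, sei and KCNQ.

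The relative lengths of slo and Hk differed most between groups. The Ensembl BDGP6 annotation gives 17 transcripts of Sh, 23 of slo, 10 of Shab and 9 each of Hk and KCNQ, against 2 of qvr and 3 each of Shal and sei. The relative length of slo had group means from 3.93 in HC GAL4 control 29C to 4.40 in Mech 6h. For Hk they ran from 3.00 in R65H02 GAL4 control 29C to 3.35 in Mech 6h, and the ratio of 3.31 to 3.38 in Mech 6h did not overlap the 3.12 to 3.18 of ZT0. Sh stayed between 4.22 and 4.35, Shab between 3.57 and 3.69 and KCNQ between 1.45 and 1.49, so a high number of annotated transcripts did not go with a wide range in these 3. The tables used here are per gene, so which transcripts were read is not analysed here.

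Reads of overlapping genes on the opposite strand cannot be told apart where the counting ignored strand, which is not given in the sources used here. This concerns Hk (asRNA:CR43959), sei (gammaSnap1 and ppk29) and KCNQ (CG18011 and asRNA:CR45133). In the same annotation the exons of the other 7 members overlap no other gene.

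Shaking for 6 h was followed by lower counts of all 10 members. At 6 h Shab fell to 0.641 of its ZT0 level, eag to 0.669, qvr to 0.702, Sh to 0.743 and Hk to 0.779. The smallest drops were those of sei (0.886) and KCNQ (0.871), the 2 shortest members. At 3 h 8 members fell, and at 12 h, a whole night of shaking, 3 did. The 3 comparisons share the ZT0 libraries.

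Of the Shaker complex, Sh lay at 2238, 2274 and 2133 CPM in the 3 ZT0 libraries. It lay at 1899, 1747 and 1680.4 CPM after 3 h of shaking, 1757, 1570.2 and 1695 after 6 h and 1973, 1978 and 2115 after 12 h. All 9 shaken libraries were below the 3 undisturbed libraries, and the libraries of 6 h overlapped those of 3 h. The log2 change was -0.32 ± 0.05 (SE) at 3 h, -0.43 ± 0.05 at 6 h and -0.13 ± 0.05 at 12 h. With edgeR's quasi-likelihood test, adjusted over all genes tested, the adjusted p was 0.000741 at 3 h, 1.08e-05 at 6 h and 0.115 at 12 h, against a threshold of 0.05. In bulk tissue, fewer cells of a type and less RNA per cell cannot be told apart.

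The beta subunit Hk had 1055, 1055 and 1005 CPM at ZT0. After shaking it had 917, 953 and 868 CPM at 3 h, 845, 806 and 818 at 6 h and 994, 973 and 991 at 12 h. Again no shaken library reached the undisturbed ones, and the 6 h libraries were the lowest. The log2 changes were -0.19 ± 0.04, -0.36 ± 0.04 and -0.07 ± 0.04, with adjusted p of 0.00647, 9.89e-06 and 0.29 in edgeR. The Shaker regulator qvr went from 1593, 1579.6 and 1534 CPM at ZT0 to 1319.8, 1333 and 1259.5 at 3 h, 1186, 1079 and 1096 at 6 h and 1448, 1286 and 1368 at 12 h. Its libraries at 6 h lay below those of all other durations without overlap. It fell at every duration, by 0.27, 0.51 and 0.20 on the log2 scale.

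Among the other channel subfamilies, Shab showed the largest change of the members at each duration. It lay at 1218, 1167 and 1219.8 CPM at ZT0, 915, 903 and 985 at 3 h, 802, 759 and 790.3 at 6 h and 1039, 936 and 1005 at 12 h. The 4 groups were ordered, with 6 h lowest and ZT0 highest without overlap, while 3 h and 12 h overlapped. Its log2 changes were -0.37 ± 0.05, -0.64 ± 0.05 and -0.27 ± 0.05, with adjusted p of 0.000179, 1.65e-07 and 0.00287 in edgeR. Shal and Shaw changed less, Shal by -0.27 and Shaw by -0.34 at 6 h. Shal missed the threshold at 3 h (adjusted p = 0.0733 in edgeR) and both missed it at 12 h.

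The calcium-activated channel slo had 1479.6, 1423 and 1448 CPM at ZT0 and 1150.1, 1138 and 1178 after 6 h, a log2 change of -0.35 ± 0.05. The longest member, eag, had 364, 358 and 365 CPM at ZT0, 273, 295 and 283 at 3 h, 252, 241 and 248 at 6 h and 310.3, 286 and 307 at 12 h. Like Shab and qvr, eag fell at all 3 durations, with log2 changes of -0.36, -0.58 and -0.26. Its relative sei went from 162, 156 and 149 CPM to 134, 149.8 and 137 at 6 h, groups that overlapped, with a log2 change of -0.17 ± 0.06 (adjusted p = 0.0196, edgeR). For KCNQ the values were 88.6, 82.8 and 85.2 CPM at ZT0 and 76.3, 76.7 and 74.4 at 6 h, with no overlap and a log2 change of -0.20 ± 0.06.

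The background of these counts is large. Among the 8845 genes tested, 23.6% were called at 3 h, 46.1% at 6 h and 16.3% at 12 h, beside 8, 10 and 3 of the 10 members. All calls among members were of lower counts. All 3 shaken libraries of a group lay below all ZT0 libraries for 9 members at 3 h, 9 at 6 h and 8 at 12 h. How many of all genes did so was not counted, so these counts do not set the members apart. Whether the 3 durations differed from each other was tested directly, and 8 members passed (15.8% of all genes did), all but sei and KCNQ. That count was 5 without Mech 12h replicate 1 (951 genes), Mech 12h replicate 3 (1036) or Mech 6h replicate 3 (625), where the full fit called 1397 genes. The count at 12 h was 5 without Mech 12h replicate 3 (1682 genes against 1440 in full).

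Change followed gene length across the genome in these comparisons. Across the 8845 genes, which are not independent replicates, Pearson's r between the log2 change and log2 relative length was -0.44 at 3 h, -0.61 at 6 h and -0.47 at 12 h. At 6 h the median log2 change was 0.56 in the shortest length class and -0.39 in the longest. The members' median was -0.36 at 6 h, -0.25 at 3 h and -0.13 at 12 h, beside -0.19 and -0.16 in the longest class at 3 h and 12 h. The medians of all genes tested were 0.03, 0.03 and 0.01.

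When each library's own trend of log2 CPM on length was removed by an offset, most of the members' change went with it. No member passed at 3 h (3.78% of genes did) or at 12 h (1.46%) in edgeR with that offset, and 4 and 2 members had an unadjusted p under 0.05. The share of all genes at an unadjusted p was not counted, here or below, so such counts do not set the members apart. At 6 h 3 members passed, beside 14.6% of all genes. Shab (-0.16 ± 0.04, adjusted p = 0.0181) and qvr (-0.14 ± 0.04, adjusted p = 0.0265) stayed lower than genes of their length, and slo was higher (0.16 ± 0.05, adjusted p = 0.0263). The direction for slo thus depends on the scale, lower in counts and higher against genes of its length. Without 1 library these calls could be lost, for Shab without Mech 6h replicate 2, ZT0 replicate 1 or ZT0 replicate 2, where its adjusted p reached 0.0759, and for qvr also without Mech 6h replicate 3 (up to 0.116). The slo call was lost without Mech 6h replicate 2 or 3 or any ZT0 library (up to 0.109). None of the 10 members passed the test among durations with the offset (2.67% of genes did), where 3 had an unadjusted p under 0.05.

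Sh and Hk did not stand apart from genes of their length at 6 h, with offset changes of 0.09 ± 0.05 and 0.07 ± 0.04, opposite in sign to their changes in counts. Neuron markers moved with the members, since 6 of 7 were lower at 6 h (median -0.54), where 46.1% of all genes were called. Their sum was 7275 to 7664 CPM against 10049 to 10149 at ZT0. Glia markers were lower as well, with a sum of 2775.5 to 2907 CPM at 6 h and 2985 to 3377 at ZT0. Photoreceptor markers summed to 286 to 1059 CPM at 6 h and 823 to 4362 at ZT0, and fat body markers to 56.4 to 252 and 174 to 538. The share of counts on protein-coding mitochondrial genes moved as well, at 5.81% to 7.07% after 6 h, 4.10% to 4.18% after 3 h and 3.18% to 5.80% after 12 h against 2.26% to 3.06% at ZT0. The part of these markers or of the mitochondrial share in the members' change was not tested.

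**Figure D2:**
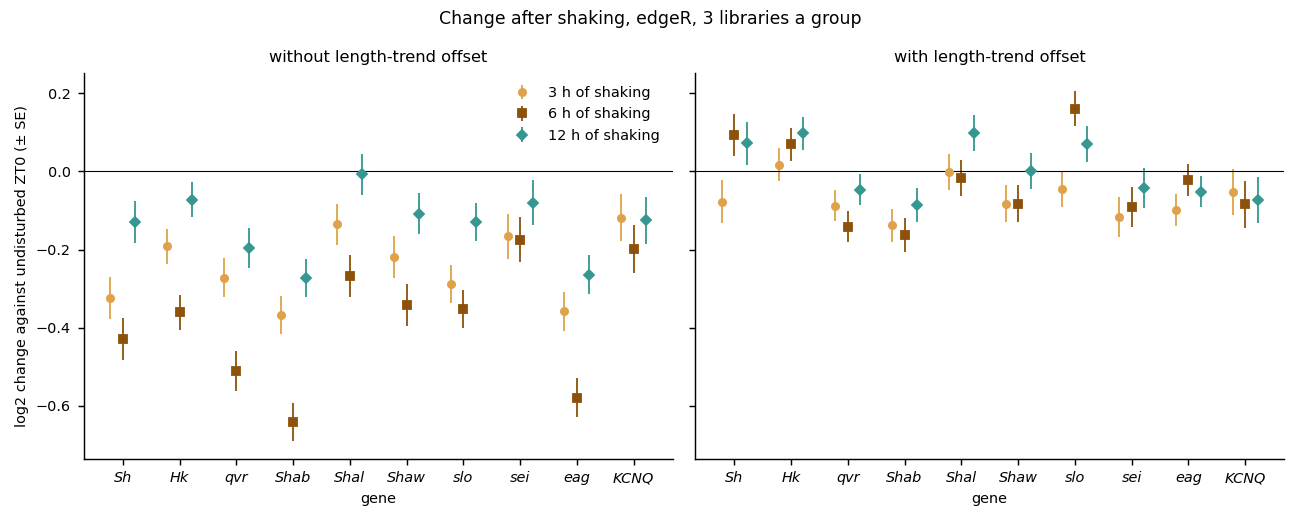
Log2 change of each member against undisturbed ZT0 after 3, 6 and 12 h of shaking (y axis, edgeR, bars are ± 1 SE, 3 libraries a group), without (left) and with (right) the length-trend offset. All points are below 0 on the left, between -0.64 and -0.01, and lie between -0.16 and 0.16 on the right.

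The other potassium channel genes showed the same split between scales. Of the 16 tested, 9 fell and 1 rose at 6 h with a median log2 change of -0.36, against 5 lower at 3 h and 4 lower at 12 h. Of all genes tested, 46.1% were called at 6 h, 23.6% at 3 h and 16.3% at 12 h. The called genes with the largest changes at 6 h were CG10864 (-1.37), an annotated potassium channel gene, SLO2 (-0.59), the second Slo-family channel, CG42594 (-0.48) and Ork1 (-0.46), a leak channel. Of 5 further channel partners, 4 fell at 6 h, namely Slob (-0.62), which binds the Slo channel, the scaffold dlg1 (-0.54), dysc (-0.45), which binds Slo, and the protein leo of the conserved phosphoserine-binding adaptor family (-0.13). With the length offset CG10864 (-1.59, adjusted p = 0.0093, edgeR) and Slob (-0.24, adjusted p = 0.00883) stayed lower, and no other gene of either list passed. Of all genes tested, 14.6% were called with that offset. CG10864 is a short gene, 0.719 times the median length, unlike most of the list. Its level was low, with group means of 1.09 to 3.60 CPM over the 24 groups, so its change rests on few counts.

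Across zeitgeber time in undisturbed flies, 4 members varied, Sh, Shab, eag and KCNQ, and ZT20 was low for each. Shab lay at 939.7, 982 and 825 CPM at ZT20 and between 1072 and 1359.7 at all other times, with no overlap. Sh lay at 1797, 1814 and 1619.5 CPM at ZT20 against 1850 to 2532 at the other times, also without overlap. For eag the ZT20 libraries had 299.6, 286 and 239 CPM, all below the lowest library of another time, 300.3.

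KCNQ had a different course. It lay at 94.8, 99 and 92.0 CPM at ZT4, 99.2, 96.3 and 87.5 at ZT8 and 92.4, 102 and 91.8 at ZT12. At ZT16 it lay at 83.4, 78.7 and 72.02 CPM, at ZT20 at 72.6, 81.9 and 63.1 and at ZT0 at 88.6, 82.8 and 85.2. All libraries of ZT4, ZT8 and ZT12 were above all those of ZT16 and ZT20, which overlapped each other, and ZT0 lay between and overlapped both sides.

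The adjusted p of the test over the 6 times in edgeR was 0.00594 for KCNQ, 0.00645 for Shab, 0.036 for eag and 0.0434 for Sh, and 15.1% of the 9242 genes tested passed. Hk (0.0635) and the remaining members (0.14 to 0.556) did not. With the length-trend offset KCNQ (0.0118) and Shab (0.0147) passed, beside 5.16% of genes. Without ZT0 replicate 1 or ZT20 replicate 3 the uncorrected count was 2, beside 1067 and 487 genes, where the full fit called 1400. No member passed when ZT20 was left out (48 genes did), and 1 passed with cosine and sine terms of 24 h (159 genes). The mean slope of log2 CPM on log2 relative length was -0.07 at ZT20 and 0.03 to 0.10 at the other times, and the neuron marker sum was 8372 to 8882 CPM at ZT20 against 10049 to 10149 at ZT0. The mitochondrial share was 3.91% to 5.70% at ZT20 and 1.92% to 3.16% at the other times. The part of these in the ZT20 values was not tested.

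Activation of wake-promoting neurons was compared first with GAL4 controls at the same temperature. In R65H02, 8 members were lower than in the GAL4 control (53.8% of all genes were called), eag with -0.80, Shab with -0.75, qvr with -0.71 and Sh with -0.65 in log2 change. In R21H11, 9 were lower (47.2% of genes), eag with -0.94, Shab with -0.87 and qvr with -0.86. In HC (0.989% of genes called) and R60F09 (0.247%) edgeR called no member, with 1 and 0 members at an unadjusted p under 0.05, and DESeq2 also called 0 in both. A p that misses the threshold does not show that values did not differ.

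Sh lay at 1429.9, 1244 and 1227 CPM in R65H02 TrpA1 29C and 2022, 1875 and 2179 in its GAL4 control, groups without overlap. In R21H11 the TrpA1 29C libraries were spread widely, at 1160.1, 1099.8 and 1922 CPM, and replicate 3 overlapped the GAL4 control at 1961, 2066 and 1916. In HC and R60F09, Sh at 1805 to 2088 and 1777 to 1921 CPM overlapped the GAL4 controls at 1627 to 1906 and 1852 to 1950.5. Sh was called in R65H02 and in none of the other 3 lines.

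For qvr, R65H02 TrpA1 29C had 1248, 1059.6 and 1069 CPM against 1788, 1796 and 1884 in the control, a log2 change of -0.71 ± 0.08 (adjusted p = 1.15e-05, edgeR). R21H11 TrpA1 29C had 1046, 688 and 1152 CPM against 1748, 1822 and 1644, a change of -0.86 ± 0.18 (adjusted p = 0.00482). In HC it had 1533, 1539 and 1639 CPM against 1666, 1820.2 and 1899, and in R60F09 1557, 1414 and 1437 against 1743, 1649.9 and 1666. TrpA1 29C lay below the control without overlap in all 4 lines, although the test was passed in R65H02 and R21H11 and not in HC (-0.19) or R60F09 (-0.21). How many of all genes did so was not counted. The order differed against TrpA1 21C, where qvr in TrpA1 29C was above without overlap in HC and R60F09 and overlapped in R21H11 and R65H02. GAL4 control 29C was itself above TrpA1 21C for qvr without overlap in all 4 lines.

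Averaged over the 4 wake-promoting lines, all 10 members were lower than in the GAL4 controls (56.9% of 9452 genes called), from -0.13 (KCNQ) to -0.48 (eag) in log2 change. The lines differed from each other for 9 members (36.7% of genes), all but sei. Without replicate 2 of every group 0 members passed (111 genes did), and without replicate 1 it was 1 (691 genes). The full fit called 3471 genes, so the loss was not particular to the members. With the length-trend offset the average held a drop for qvr (-0.19 ± 0.03), sei (-0.18 ± 0.03) and Shaw (-0.09 ± 0.04), while Sh (0.17 ± 0.05) and Hk (0.10 ± 0.03) turned to higher than genes of their length (32.9% of genes called). The offset left a difference among lines for Shab, Shaw and KCNQ (17.3% of genes). Per line with the offset, R65H02 held 4 lower members (29.4% of genes), qvr, Shab, Shal and Shaw, and R21H11 held 3 (13.7%), qvr, sei and KCNQ. HC held 1 (4.55%) and R60F09 1 (0.572%), in both cases Shab and higher, at 0.25 (adjusted p = 0.0379) and 0.32 (adjusted p = 0.0485), and in R65H02 Shab was lower at -0.13.

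Length and neuron markers moved with these drops. Pearson's r between log2 change and log2 relative length across genes was -0.64 in R21H11 and -0.43 in R65H02, against -0.11 in HC and -0.11 in R60F09. The neuron marker sum was 7302 to 7980 CPM in R65H02 TrpA1 29C and 10888 to 11306 in its GAL4 control, and 5775 to 7698 and 10456 to 11502 in R21H11. The mitochondrial share was 4.32% to 5.33% in R65H02 TrpA1 29C and 2.16% to 2.29% in its GAL4 control, and 3.37% to 6.54% and 2.00% to 2.23% in R21H11. In HC it was 1.75% to 2.33% and 2.29% to 2.66%, and in R60F09 1.69% to 2.01% and 1.88% to 2.35%. The part of these in the members' change was not tested. Some of the offset calls were lost when a library was left out. Those of qvr and Shaw in R65H02 held with each library left out in turn, and those of Shab and Shal there were lost without several libraries. The Shab call was lost in 6 of 9 fits in HC and 8 of 9 in R60F09, with adjusted p up to 0.146 and 0.287. In R21H11 qvr was lost in 7 of 9 fits, KCNQ in 4 and sei in 3. None of the 3 was called without R21H11 TrpA1 29C replicate 2, R21H11 GAL4 control 29C replicate 1 or R21H11 GAL4 control 29C replicate 2.

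In the sleep-promoting line R85C10 no member was called against its GAL4 control in edgeR (1.44% of genes), 1 had an unadjusted p under 0.05 and DESeq2 called 1 (212 genes). That member was KCNQ, at 64.0, 67.2 and 65.2 CPM in TrpA1 29C and 83.1, 103 and 76.7 in the GAL4 control, with no overlap and a log2 change of -0.41 ± 0.11 (adjusted p = 0.0835, edgeR). With the length offset it was -0.39 ± 0.09 (adjusted p = 0.0458) and the 1 member called (2.08% of genes), and this call was lost in 8 of 9 fits that left out a library (adjusted p up to 0.133). KCNQ at 81.5, 91.0 and 91.8 CPM in TrpA1 21C was also higher than in TrpA1 29C, without overlap.

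Compared with flies of the same genotype kept at 21 °C, the lines went in different directions. R65H02 TrpA1 29C was lower for 8 members (30.3% of genes called). R60F09 TrpA1 29C was higher for 7 (44.7%), with Shab at 0.79, KCNQ at 0.74 and eag at 0.73 in log2 change. In HC, KCNQ was higher and the only member called (33.5%), and in R85C10 Sh, Hk, sei and KCNQ were lower (18.7%). In R21H11 edgeR called none (3.03%), with 5 members at an unadjusted p under 0.05 and 4 called by DESeq2 (884 genes). The 29 °C and 21 °C groups differ in temperature and in the activity of the TrpA1 channel, which cannot be told apart here. Single libraries moved these counts, and the counts over all genes moved as well. R60F09 had 3 members called without R60F09 TrpA1 21C replicate 2 (2965 genes) or R60F09 TrpA1 29C replicate 1 (2916). It had 4 without R60F09 TrpA1 21C replicate 1 (3088), where the full fit called 3978 genes. R65H02 had 5 without R65H02 TrpA1 21C replicate 2 (2251 genes) or R65H02 TrpA1 29C replicate 2 (1911) or 3 (1739), against 2735 genes in full. HC had 5 without HC TrpA1 21C replicate 2 (3557 genes) and 3 without HC TrpA1 21C replicate 3 (2702), against 2943 genes in full. R21H11 had 4 without R21H11 TrpA1 29C replicate 3 (521 genes against 269 in full). R85C10 had 8 without R85C10 GAL4 control 29C replicate 2 (2091 genes) and 1 without R85C10 TrpA1 21C replicate 2 (917) or 3 (757). It had 2 without R85C10 TrpA1 21C replicate 1 (895) or R85C10 TrpA1 29C replicate 1 (1091) or 3 (1099), against 1625 genes in full.

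A change in the same direction against both controls of a line was found for 7 members in R65H02 (17.5% of genes), namely Sh, Hk, qvr, Shab, Shal, Shaw and slo. It was found for none in R21H11 (1.45%), HC (0.523%), R60F09 (0.0898%) and R85C10 (0.955%) in edgeR. At an unadjusted p under 0.05 in both contrasts there were 5, 1, 0 and 1 members in these 4 lines, and DESeq2 called 4, 0, 0 and 1. DESeq2 called 595 genes in R21H11 and 139 in R85C10 in this way. Shares of all genes at the unadjusted p are not given here. With the length-trend offset 2 members were called in R65H02 (847 genes), 1 in R21H11 (200), 1 in R60F09 (25) and 1 in R85C10 (119). In HC it was 0 (256 genes). In edgeR with no offset, the R65H02 count was 4 without R65H02 TrpA1 21C replicate 2 or R65H02 TrpA1 29C replicate 2 or 3 (1229, 1004 and 935 genes). The R21H11 count was 4 without R21H11 TrpA1 29C replicate 3 (391 genes).

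Length again moved with these directions. Pearson's r between log2 change and log2 relative length across genes was 0.49 in R60F09, 0.32 in HC, -0.24 in R65H02, -0.39 in R21H11 and -0.24 in R85C10. Neuron marker sums followed, at 6720 to 8677 CPM in R60F09 TrpA1 21C and 9487 to 9956 in TrpA1 29C, and at 8247 to 8773 and 7302 to 7980 in R65H02. Fat body markers summed to 587 to 2413 CPM in R60F09 TrpA1 21C against 320 to 1099 in TrpA1 29C. The mitochondrial share was 3.96% to 9.17% in R60F09 TrpA1 21C against 1.69% to 2.01% in TrpA1 29C, and 3.37% to 4.93% against 1.75% to 2.33% in HC. In R65H02 it was 2.85% to 4.36% at 21 °C and 4.32% to 5.33% at 29 °C, in R21H11 3.14% to 5.69% and 3.37% to 6.54%, and in R85C10 2.57% to 3.25% and 2.28% to 2.57%. The part of length, of these markers or of the mitochondrial share in the members' changes was not tested.

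**Figure D3:**
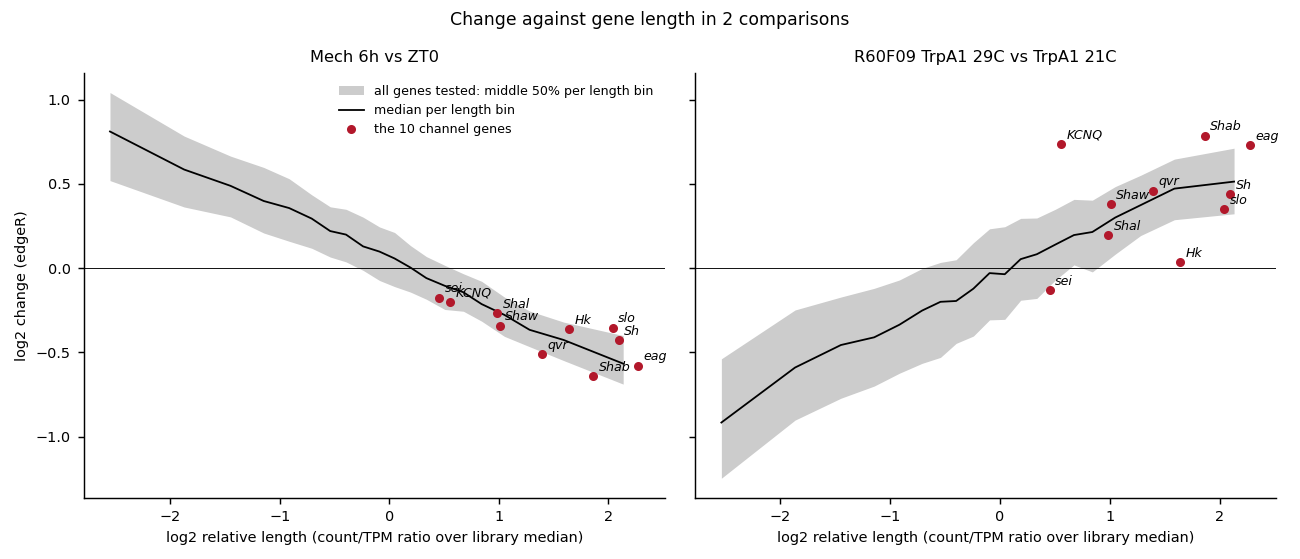
Log2 change (y axis, edgeR) against log2 relative length (x axis) for Mech 6h against ZT0 and for R60F09 TrpA1 29C against TrpA1 21C. The line is the median and the grey band the range from the lower to the upper quartile of all tested genes in each of 20 length bins, and the points are the 10 members. The members follow a falling trend on the left and a rising one on the right, where Hk and sei lie below the median line and KCNQ, Shab and eag above the band.

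With the length-trend offset the beta subunit Hk was lower in TrpA1 29C than in TrpA1 21C in all 5 lines and called in 4. The share of all genes called was 31.1% in R65H02, 33.4% in HC, 33.3% in R60F09, 22.5% in R85C10 and 9.22% in R21H11. How many of all genes were lower in all 5 lines was not counted, and sei was as well, with a call in each. R65H02 had an offset log2 change of -0.40 ± 0.05, HC of -0.49 ± 0.05, R60F09 of -0.42 ± 0.06 and R85C10 of -0.44 ± 0.07. The adjusted p in edgeR were 7.61e-05, 4.96e-06, 0.000163 and 0.000317. In R21H11 it was -0.29 ± 0.09 (adjusted p = 0.076). In the 4 lines with a call, Hk remained called with each of the 9 libraries left out in turn, the highest adjusted p being 0.00297.

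The counts themselves show the scale on which this holds. In R65H02, Hk lay at 749.8, 658 and 648 CPM in TrpA1 29C, 1004, 1077 and 1023 in TrpA1 21C and 975, 896 and 999 in the GAL4 control at 29 °C. In R85C10 it lay at 718, 891 and 857, 1259, 1223 and 1270.4 and 778, 1027 and 781 CPM. In both lines all TrpA1 29C libraries were below all TrpA1 21C libraries. In R21H11 the values were 660, 532 and 896 CPM, 1072, 1086 and 1018 and 1002, 1094 and 951. In HC they were 930.4, 894 and 894 CPM, 1117, 1151 and 929.8 and 819, 910.2 and 899.7. R21H11 was likewise without overlap, and in HC the highest TrpA1 29C library exceeded the lowest TrpA1 21C library by under 1 CPM. In R60F09 they were 861, 860.4 and 828 CPM, 804, 744 and 972 and 898, 839 and 848, groups that overlapped, with a log2 change in counts of 0.03 ± 0.11.

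In R60F09 and HC, Hk was thus lower relative to genes of its length and was not called in counts. On the TPM scale without the offset its change was 0.62 in R60F09 and 0.18 in HC, where the median of all genes was 0.47 and 0.30, and -0.67 in R65H02, -0.75 in R21H11 and -0.59 in R85C10. Against GAL4 controls at 29 °C the offset change of Hk was 0.06 to 0.14 over the 5 lines and none was called. Between the 2 controls, GAL4 control 29C was lower than TrpA1 21C by the offset in all 5 lines, with values of -0.43 to -0.62, and called in each. The low values of Hk therefore lay in both 29 °C groups. TrpA1 21C and GAL4 control 29C differ in temperature and in genotype, which cannot be told apart.

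**Figure D4:**
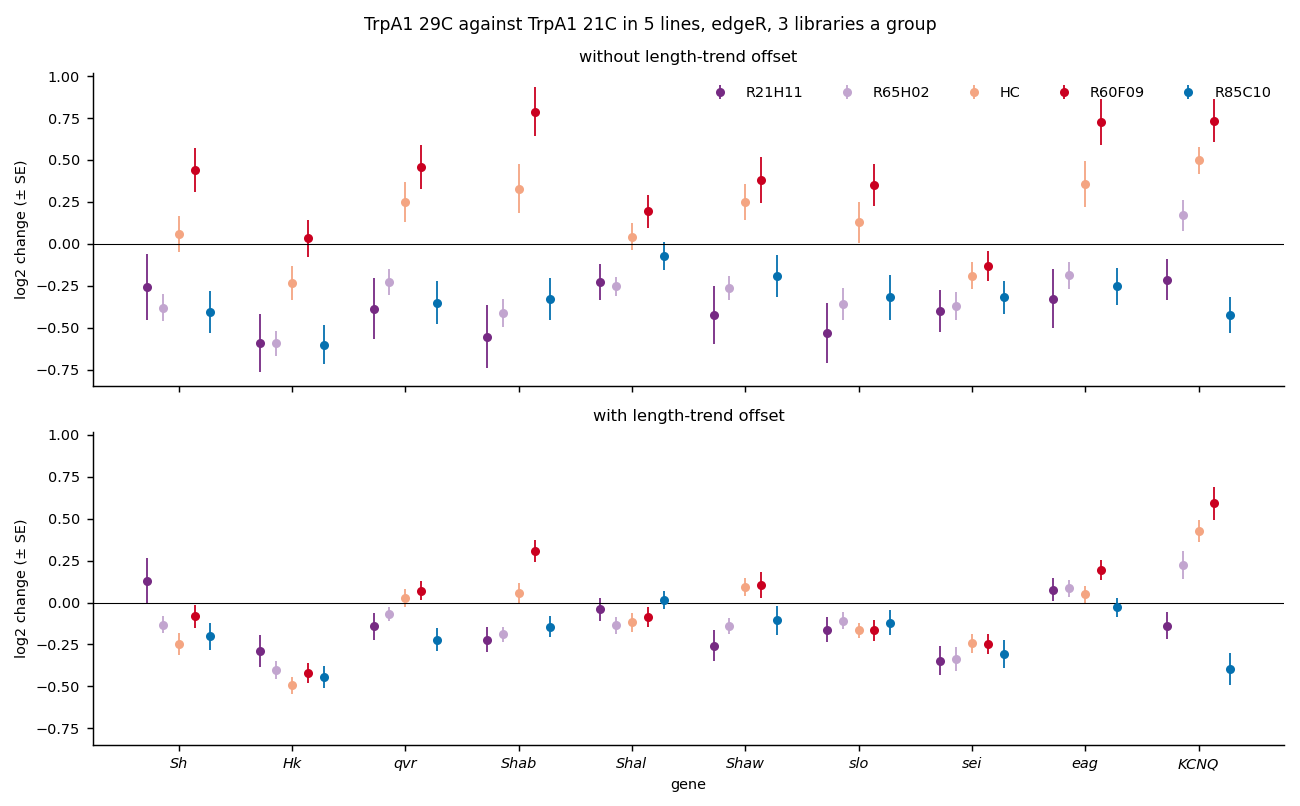
Log2 change of each member in TrpA1 29C against TrpA1 21C in the 5 lines (y axis, edgeR, bars are ± 1 SE, 3 libraries a group), without (top) and with (bottom) the length-trend offset. On top the lines spread over both signs, and with the offset Hk is between -0.49 and -0.29 and sei between -0.35 and -0.24 in all 5 lines, while KCNQ runs from -0.40 to 0.59.

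The ratio of Hk to Sh in TPM compares both genes within each library. This ratio was chosen after the values were seen. In R65H02 it was 0.799 to 0.852 in TrpA1 21C, 0.711 to 0.724 in TrpA1 29C and 0.641 to 0.683 in the GAL4 control. In R60F09 it was 0.780 to 0.912, 0.633 to 0.663 and 0.617 to 0.643. TrpA1 21C lay above both 29 °C groups without overlap in these lines, and did so in 5 of 5 lines. The ratios were 0.822 to 0.847, 0.618 to 0.772 and 0.680 to 0.716 in R21H11, 0.734 to 0.763, 0.613 to 0.716 and 0.653 to 0.688 in HC, and 0.712 to 0.719, 0.608 to 0.659 and 0.588 to 0.686 in R85C10. In the 18 undisturbed iso31 libraries at 25 °C it ran from 0.628 to 0.728 with a median of 0.653. A ratio shows that Hk and Sh changed unequally and not which of them changed.

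The ratio of qvr to Sh ran the other way and less evenly. It was lower in TrpA1 21C than in GAL4 control 29C without overlap in 4 of 5 lines, and lower than in TrpA1 29C in 3 of 5. In HC it was 1.04 to 1.18 in TrpA1 21C, 1.20 to 1.41 in TrpA1 29C and 1.56 to 1.68 in the GAL4 control. In R85C10 the GAL4 control, at 1.23 to 1.53, overlapped TrpA1 21C at 1.31 to 1.32. Undisturbed iso31 libraries had 1.03 to 1.26.

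**Figure D5:**
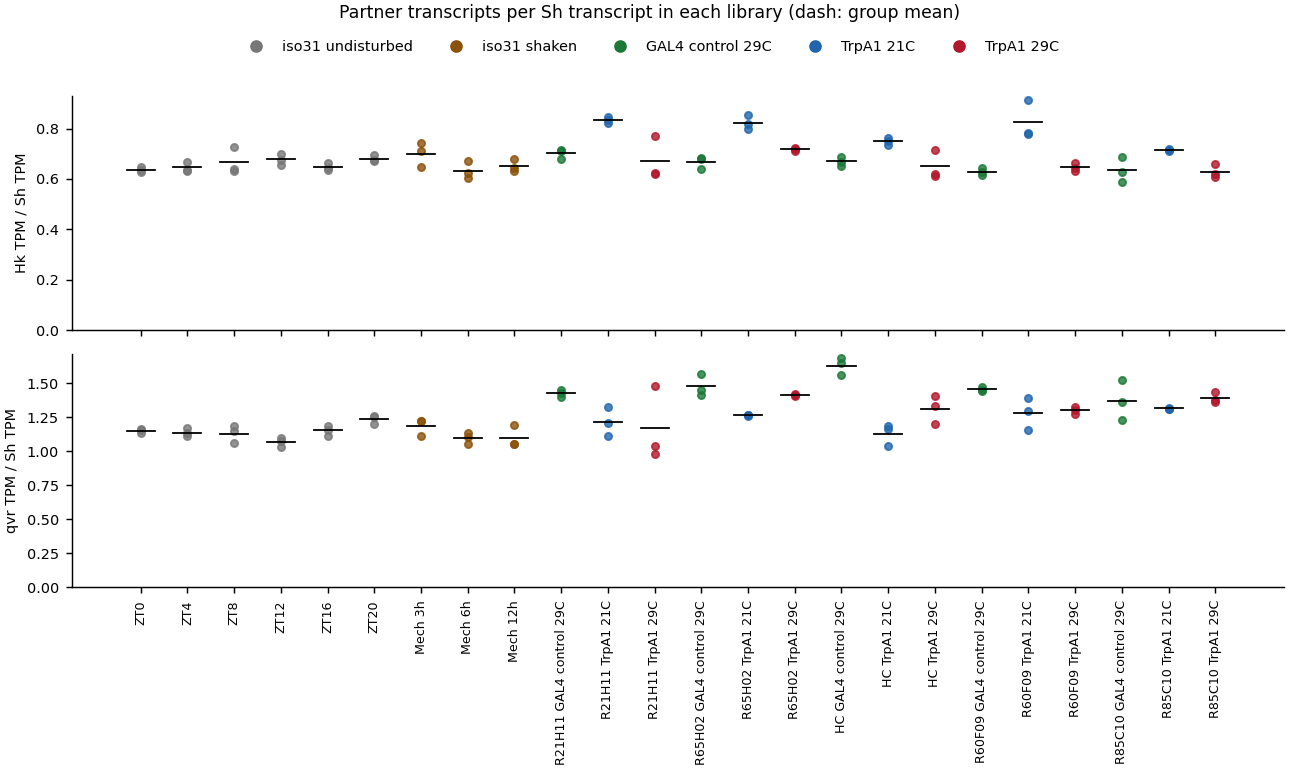
Ratio of Hk to Sh (top) and of qvr to Sh (bottom) in TPM (y axis, from 0) in each of the 72 libraries, by group (x axis), with a dash at the mean of 3 libraries. The TrpA1 21C groups have the highest Hk to Sh ratios in every line, and their libraries lie above both 29 °C groups of the line.

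The ERG relative sei was also lower in TrpA1 29C than in TrpA1 21C in counts in all 5 lines. With the length offset it was called in each, where 9.22% to 33.4% of all genes were called. R21H11 had an offset change of -0.35 ± 0.08, R65H02 of -0.33 ± 0.07, HC of -0.24 ± 0.06, R60F09 of -0.25 ± 0.06 and R85C10 of -0.31 ± 0.08. In R65H02 sei lay at 124, 102 and 107 CPM in TrpA1 29C and 141, 145 and 146 in TrpA1 21C, and in HC at 120.2, 124 and 128 and 141, 151 and 133. Neither pair of groups overlapped. In R60F09 sei at 122, 135 and 123 CPM overlapped the 132, 138 and 151 of TrpA1 21C, and its change in counts was -0.13 ± 0.09 (adjusted p = 0.241, edgeR). On the TPM scale without the offset sei was higher at 29 °C in R60F09 (0.39) and HC (0.16). The offset calls held with any library left out in R65H02, HC and R60F09. They were lost without R21H11 TrpA1 21C replicate 1 or 2 or R21H11 TrpA1 29C replicate 2 (adjusted p up to 0.0937), and without R85C10 TrpA1 21C replicate 1 or 3 or R85C10 TrpA1 29C replicate 3 (up to 0.0677). The GAL4 controls at 29 °C did not all share this. Against TrpA1 21C their offset changes of sei were -0.23 in R65H02 (adjusted p = 0.0185, edgeR) and -0.17 in R60F09 (0.0401), calls that were lost in 1 and 6 of 9 fits without a library. They were -0.21 in R85C10 (0.106), -0.04 in HC (0.666) and -0.03 in R21H11 (0.855), not called. In counts sei lay at 145, 158 and 139 CPM in the R21H11 GAL4 control and 151, 153 and 129.6 in R21H11 TrpA1 21C, groups that overlapped.

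KCNQ went in opposite directions by line. In R60F09 it lay at 89.2, 84.5 and 89.4 CPM in TrpA1 29C and 43.8, 53.5 and 61.8 in TrpA1 21C, a log2 change of 0.74 ± 0.13 (adjusted p = 0.000979, edgeR). In the group labelled HC TrpA1 21C it lay at 60.9, 63.3 and 56.5 CPM and in HC TrpA1 29C at 81.1, 87.0 and 86.4, a change of 0.50 ± 0.08 (adjusted p = 0.00117). The groups did not overlap in either line, and the GAL4 controls at 29 °C, at 73.9 to 93.8 and 78.0 to 83.1 CPM, were also above TrpA1 21C. In R85C10 KCNQ was lower in TrpA1 29C than in TrpA1 21C, at -0.42 ± 0.11 (adjusted p = 0.0154). With the offset these changes were 0.59, 0.42 and -0.40, and each call held with any of the 9 libraries left out. The difference among the 4 wake-promoting lines passed for KCNQ with and without the offset (adjusted p = 0.000637 and 0.00027, edgeR).

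Shab also had a difference among lines on both scales against TrpA1 21C. It lay at 1351, 1256 and 1267 CPM in R60F09 TrpA1 29C, 666, 648 and 959.8 in TrpA1 21C and 1163, 987 and 1202 in the GAL4 control. TrpA1 29C was above both controls without overlap, and the difference from the GAL4 control was not called in edgeR (adjusted p = 0.772). In R65H02 it lay at 797, 681 and 702 CPM in TrpA1 29C, 1011, 1029.9 and 868 in TrpA1 21C and 1257, 1149.7 and 1237 in the GAL4 control, below both. With the offset the change against TrpA1 21C was 0.31 ± 0.07 in R60F09 and -0.19 ± 0.04 in R65H02, and the difference among the 4 lines had an adjusted p of 0.000334 in edgeR. Shaw passed that test as well (0.0205), with offset changes of -0.26 in R21H11, -0.14 in R65H02, 0.09 in HC and 0.10 in R60F09.

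By count, the offset fits against TrpA1 21C called 1 member in R21H11 (9.22% of genes) and 4 in R65H02 (31.1%). HC had 5 members called (33.4%), R60F09 had 5 (33.3%) and R85C10 had 4 (22.5%). Averaged over the 4 wake-promoting lines, 3 members were called without the offset (44.3% of genes), Hk at -0.34 ± 0.06, sei at -0.27 ± 0.04 and KCNQ at 0.30 ± 0.05. With the offset 6 were called (50.7%), Hk (-0.40 ± 0.03, adjusted p = 9.13e-12, edgeR), sei (-0.29), slo (-0.15) and Shal (-0.10) lower, and KCNQ (0.27) and eag (0.10) higher. Sh, qvr, Shab and Shaw were not called in either. The lines differed for 9 members without the offset (41.6% of genes), all but sei, and for 3 with it (16.2%). Without replicate 1 of every group 2 members passed uncorrected (1000 genes did), and without replicate 2 it was 3 (903 genes), where the full fit called 3928 genes. Shares of called genes of this size mean that a member's call alone does not set it apart.

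The 2 control groups of a line also differed from each other. The mitochondrial share was 1.68% to 2.66% over the GAL4 controls and 2.57% to 9.17% over the TrpA1 21C groups of the 5 lines, and its part in these differences was not tested. GAL4 control 29C against TrpA1 21C called 1 member in R21H11 (16.5% of genes) and 7 in R65H02 (48.3%). HC had 4 members called (33.4%), R60F09 had 7 (48.9%) and R85C10 had 1 (9.02%). The R21H11 count was 0 without any 1 of the 6 control libraries (147 to 801 genes) and 5 without R21H11 TrpA1 29C replicate 2 (3404), against 1463 genes in full. The HC count was 1 without HC GAL4 control 29C replicate 2 (1635 genes) or 3 (1713), against 2934 in full. The R85C10 count was 6 without R85C10 GAL4 control 29C replicate 2 (1314 genes) and 2 without R85C10 TrpA1 29C replicate 1 (1043). It was 0 without R85C10 GAL4 control 29C replicate 1 or 3 or R85C10 TrpA1 21C replicate 1 or 3 (271 to 448 genes), against 784 genes in full. In R65H02 and R60F09 all 7 were higher in GAL4 control 29C, led by eag with 0.61 ± 0.08 and 0.88 ± 0.14. The longest member eag lay at 375, 328 and 366 CPM in R60F09 GAL4 control 29C and 176, 168 and 248 in TrpA1 21C. In HC, eag, qvr and KCNQ were higher and Hk lower, a direction that was the opposite for Hk in TPM (0.12, with the median of all genes at 0.31). In R85C10 Hk was the member called, at -0.53 ± 0.12. With the length offset the counts were 1 (12.6% of genes), 7 (39.6%), 6 (25.2%), 6 (32%) and 5 (16.5%) in the same order of lines. Hk was called lower in all 5 of these, and KCNQ higher in R65H02, HC and R60F09.

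Other potassium channel genes and partners in the lines were counted in the same way. Against GAL4 controls, averaged over the 4 wake-promoting lines, 9 of 17 other potassium channel genes were lower and 4 higher, and all 5 further partners were lower, where 56.9% of all genes were called. The called channel genes with the largest changes were sand, which was higher (1.29) and encodes a leak channel known for a role in sleep-promoting neurons, and the lower CG10864 (-0.62), SLO2 (-0.49) and the small-conductance calcium-activated channel SK (-0.45). The levels of sand and CG10864 were low, with group means of 0.04 to 3.15 and 1.09 to 3.60 CPM. With the length offset 3 channel genes were lower and 3 higher, and 3 partners lower, beside 32.9% of all genes. CG10864 (-0.79) and SLO2 (-0.11) stayed called there, while SK (-0.06, adjusted p = 0.203, edgeR) and sand (1.21, adjusted p = 0.0645) were not. Against TrpA1 21C, where 44.3% of all genes were called, 6 channel genes were higher and 3 lower, with CG34396 (0.98), Elk (0.41), the remaining member of the ether-a-go-go family, CG1688 (0.34) and SK (-0.28) the largest. These 4 stayed called with the offset, at 0.94, 0.35, 0.29 and -0.33. Of the partners 1 was called there, Slip1 (-0.44).

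Slip1 was lower in TrpA1 29C than in TrpA1 21C in each of the 4 wake-promoting lines, with -0.56 in R21H11, -0.49 in R65H02, -0.32 in HC and -0.40 in R60F09, all past the threshold in edgeR. With the offset the values were -0.50, -0.45, -0.38 and -0.53. SK fell in R65H02 (-0.63) and R85C10 (-0.45), and CG34396 rose in HC (1.10) and R60F09 (1.59). The level of CG34396 was also low, with group means of 2.66 to 9.35 CPM. The test of a difference among the 4 wake-promoting lines against TrpA1 21C was passed by SK (adjusted p = 0.00121, edgeR), though not with the offset (adjusted p = 0.602), and missed by CG34396 (0.0508) and Slip1 (0.309).

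Genes whose level ran most like the Shaker complex over the 24 group means were sought among 6978 genes with a mean log2 CPM of at least 3. For Sh the highest Pearson correlations of log2 CPM were those of acj6 (0.961), Rdl (0.958), a GABA receptor subunit, and rgn (0.955). For Hk they were beat-VI (0.956), CG32264 (0.930) and CG31760 (0.930), and for qvr Toll-6 (0.984), Efa6 (0.982) and ttv (0.980). After the length trend was removed the lists changed. Rdl (0.918) stayed with Sh, joined by pros (0.866) and CG11486 (0.850), Hk ran with CG17691 (0.934), nord (0.929) and CG8613 (0.923), and qvr with vib (0.911), tipE (0.907) and ND-23 (0.875). All 24 points share the libraries, their depth and their length trend, so these values describe likeness in these groups.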

How the data were processed

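RNA from pools of 15 whole brains was sequenced in 72 libraries (PicoPure isolation and NEBNext Ultra II RNA kit, per the labels' protocols). The authors quantified reads with kallisto 0.46.1, per the submitters' processing notes. The deposited tables hold estimated counts and TPM per gene, as the file headers and values show; the genome build and annotation are not given in the sources used here. Of the estimated counts, 89.03% lie within 0.02 of a whole number, and they were rounded before testing. Each column was matched to a sample by its title, with 0 columns left unmatched. Total counts ran from 4175587 to 13435817 a library, and their size limits the precision for KCNQ, the member with the fewest counts. No 2 libraries of a group agreed within counting noise (lowest chi-square per gene 2.72).

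Counts were tested with edgeR 4.0.16 (R 4.3.3; TMM scaling, filterByExpr, robust quasi-likelihood test), in fits holding only the groups compared, with Benjamini-Hochberg adjustment over all genes tested and a threshold of 0.05. Library sizes in CPM carry the TMM factor, except in the values of TrpA1 and w. A change against both controls needed the same direction and an adjusted p under the threshold in each. The length-trend offset is, per library, a lowess curve (span 0.3) of log2 CPM deviation on log2 relative length, from genes with at least 10 counts. The code was tested on simulated data. Figures were drawn with matplotlib 3.10.9, and tables joined with pandas 2.3.3, numpy 2.4.6 and Python 3.11.15.

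Alternatives were DESeq2 1.42.0, limma 3.58.1 on log2(TPM + 1), RLE scaling, no filter, the length-trend offset, a replicate block, both together, all 72 libraries in 1 fit, each library left out, a 24 h cosine and sine, and no ZT20. Leaving out libraries in the length-offset fits was added and was chosen after seeing the data. The members and lists were chosen with earlier results of these data known. All 10 members are named; of the other potassium channel and partner lists, up to 4 called genes with the largest change per comparison are named, and for Sh, Hk and qvr the 3 genes most correlated over the 24 group means.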

Additional observations from a re-analysis of the deposited data

Results flagged for a closer look

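Differences between groups under the same contrast are given here with edgeR's adjusted p. The change after shaking differed among the 3 durations for Sh (0.00343), Hk (0.00132), qvr (0.00128), Shab (0.000372), Shal (0.00894), Shaw (0.0187), slo (0.0116) and eag (0.00129). With the length-trend offset 0 of these passed, with 3 members at an unadjusted p under 0.05.

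The change against GAL4 control 29C differed among the 4 wake-promoting lines for Sh (0.00537), Hk (0.00532), qvr (0.00903), Shab (0.000696), Shal (0.00152), Shaw (0.00314), slo (0.00323), eag (0.00196) and KCNQ (0.00511). With the length-trend offset 3 passed, Shab, Shaw and KCNQ. The change against TrpA1 21C differed among these lines for Sh (0.00751), Hk (0.00812), qvr (0.00277), Shab (0.000189), Shal (0.00183), Shaw (0.00214), slo (0.00221), eag (0.000691) and KCNQ (0.00027), and with the offset again for Shab, Shaw and KCNQ. The part of length, marker levels or single libraries in these differences was not tested.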

How the results depend on the processing

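Counts of called members that moved by more than 1.5 times are given here; for each the cause was not tested, except that the offset removes the length trend by construction. DESeq2 called 5 at Mech 12h, 4 in R21H11 against TrpA1 21C and against both controls, 2 between the R21H11 controls, 2 in HC against TrpA1 21C, 1 in R85C10 against GAL4 and against both controls and 2 between the R85C10 controls. On log2(TPM + 1) with limma 10 were called at Mech 12h and 10 over zeitgeber time, 8 in HC against TrpA1 21C and 8 between the HC controls, and 0 between the R21H11 and between the R85C10 controls; Hk between the HC controls turned to 0.12 and sei between the R60F09 controls to 0.43. The median of all genes on that scale moved by -0.21, -0.35 and -0.21 after 3, 6 and 12 h of shaking, -0.32 in R21H11 and -0.28 in R65H02 against GAL4, 0.30 in HC and 0.47 in R60F09 against TrpA1 21C. With all 72 libraries in 1 fit the counts were 0 at Mech 3h, Mech 12h and among durations, 1 over zeitgeber time, 8 in R21H11 against TrpA1 21C and against both controls, 3 between its controls, 3 in HC against TrpA1 21C, 1 in R85C10 against GAL4 and against both controls and 2 between its controls. Without the low-count filter R85C10 had 1, 1 and 2 in these. Over zeitgeber time 1 was called with cosine and sine terms (159 genes) and 0 without ZT20 (48 genes). RLE scaling moved no count by more than 1.5 times. The count over all genes mostly moved in the same direction as the members' count, in 33 of 35 such changes without the offset and 37 of 41 with it, leave-outs of single libraries not counted. For R21H11 against TrpA1 21C it went from 269 genes to 2677 with all 72 libraries and 884 with DESeq2, and at Mech 12h from 1440 to 171 with all 72 libraries, 1612 with DESeq2 and 2639 with limma.

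With the length-trend offset the counts were 0, 3 and 0 at Mech 3h, 6h and 12h, 0 among durations, 2 over zeitgeber time, 3, 4, 1, 1 and 1 against GAL4 in R21H11, R65H02, HC, R60F09 and R85C10, 1, 4 and 5 against TrpA1 21C in R21H11, R65H02 and HC, 1, 2, 1 and 1 against both controls in R21H11, R65H02, R60F09 and R85C10, 6, 6 and 5 between the HC, R60F09 and R85C10 controls, 5 and 6 for the mean of the wake lines against GAL4 and TrpA1 21C, and 3 and 3 for their differences. Signs turned for Hk at Mech 3h (0.018), Sh (0.094), Hk (0.069) and slo (0.16) at 6h, Hk (0.14), Shal (0.048) and slo (0.023) in R21H11 and Sh (0.033), Hk (0.063) and slo (0.075) in R65H02 against GAL4, Sh (-0.25) and slo (-0.17) in HC and Sh (-0.082), Hk (-0.42) and slo (-0.16) in R60F09 against TrpA1 21C. Between controls they turned for Sh (-0.16), Shab (-0.061) and slo (-0.18) in R65H02, Shab (-0.19) and slo (-0.27) in HC and Sh (-0.17), Hk (-0.49), Shab (-0.012) and slo (-0.24) in R60F09, and for the wake-line mean against GAL4 for Sh (0.17), Hk (0.10), Shab (0.076) and slo (0.067).

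The labels give replicate numbers without saying what they share, and numbers were taken to pair samples only where every correlation of same-numbered deviations in a comparison's fit was over 0.1. No fit met this. Over zeitgeber time it was missed by 1 value (0.06 to 0.56, mean 0.33), 14 of 15 pairs of groups met it, and 18 of 18 libraries correlated best with their own number, a hint from the data that numbers mark something shared there. With the replicate block 6 members instead of 4 passed over zeitgeber time, Hk and qvr in addition, and 2471 genes instead of 1400 (1116 instead of 477 with the offset). ZT0 and Mech 3h met it as a pair, and there the block left 8 members called. In the other fits 0 to 7 libraries correlated best with their own number. With a replicate block the remaining counts were 0 between the R21H11 controls, 1, 7 and 2 in R85C10 against GAL4, against TrpA1 21C and between controls, and 1 against both. With the offset and the replicate block together they were those of the offset, except 1 in R21H11, 0 in HC and 2 in R85C10 against GAL4, 0 in R21H11 and 5 in R65H02 against TrpA1 21C, 0 in R21H11 against both controls, 4 and 5 between the HC and R60F09 controls and 4 for the wake-line mean against GAL4. Signs turned for the same members except Shab in HC, and the values that round differently were 0.070 for Hk at Mech 6h, 0.13 for Hk and 0.021 for slo in R21H11, 0.035 for Sh and 0.064 for Hk in R65H02, -0.17 for Sh between the R65H02 controls, -0.078 for Sh in R60F09 against TrpA1 21C and -0.014 for Shab between its controls.

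Leaving out each library gave 6 to 9 called members at Mech 3h, 9 to 10 at 6h, 2 to 5 at 12h, 5 to 8 among durations and 2 to 6 over zeitgeber time. Against GAL4 it gave 6 to 10 in R21H11, 8 to 10 in R65H02 and 0 to 0 in HC, R60F09 and R85C10. Against TrpA1 21C it gave 0 to 4 in R21H11, 5 to 9 in R65H02, 1 to 5 in HC, 3 to 8 in R60F09 and 1 to 8 in R85C10. Between controls it gave 0 to 5, 6 to 8, 1 to 4, 5 to 9 and 0 to 6 in that order, and against both 0 to 4 in R21H11, 4 to 9 in R65H02 and 0 to 0 in the others. For the wake lines it gave 8 to 9 (mean) and 0 to 9 (difference) against GAL4, and 3 to 4 and 2 to 9 against TrpA1 21C. The count over all genes moved as well, such as 1292 to 2488 at Mech 3h and 757 to 2091 in R85C10 against TrpA1 21C. The leave-outs of the offset fits were chosen after seeing the data. KCNQ had the fewest counts of the members, which limits what its values can show.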
